A study of Mus musculus with 12 samples.

Results

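The nuclear-encoded subunits of the mitochondrial respiratory chain were examined in RNA-seq counts of mouse hearts. They were found by symbol, as genes starting with Ndufa, Ndufb, Ndufc, Ndufs, Ndufv, Uqcr, Cox4, Cox5, Cox6, Cox7, Cox8 or Atp5, plus Sdha, Sdhb, Sdhc, Sdhd and Cyc1, with a mean of at least 10 counts over the 12 libraries. Assembly factors named Ndufaf (8 genes) and pseudogenes named -ps (7 genes) were left out. Of the 49315 genes in the files, 84 qualified. By symbol, 36 were assigned to complex I, 4 to complex II, 9 to complex III, 18 to complex IV and 17 to complex V. Against their symbols, Ndufa4 and Ndufa4l2 were counted with complex IV. Some members, such as Atp5s and Cox7a2l, belong to their complex by symbol only. A further 6 genes with such symbols had a mean under 10 counts, Ndufa11b, Ndufb4c, Ndufs6b, Cox6c2, Cox7b2 and Cox8c. Subunits that carry other symbols in the annotation used, such as Atpif1 and Usmg5, are not among the 84.

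The hearts came from wild-type female C57BL/6J mice and fell into 4 groups of 3 libraries. Fat supplied 10% of the energy in the control diet; in the Western diet, fat supplied 45% and sucrose 17%, and 15 weeks of feeding preceded breeding. On each diet, hearts were taken on day 1 after delivery (postpartum) or from nonpregnant females, at 27 to 29 weeks of age. The series asks how the heart remodels when pregnancy meets metabolic syndrome, which here was induced by the diet.

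The respiratory chain passes electrons from NADH (complex I) and succinate (complex II) through complex III to oxygen at complex IV, and the proton gradient built on the way drives ATP synthesis by complex V. All subunits of complex II, and most of the others, are encoded in the nucleus, while a small core set is encoded in mitochondrial DNA. The heart, which beats without rest on oxidative metabolism, is among the tissues richest in these transcripts, and it uses muscle forms of several complex IV subunits in place of the forms found in most tissues.

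Library totals were 22754591 to 29492416 counts. The 84 genes took 4.74% to 5.24% of each library's counts and the mitochondrially encoded genes 19.2% to 21.5%. All 8 cardiomyocyte markers were present, with a summed level of 68250 to 81480 CPM (counts relative to the scaled library size). Control diet nonpregnant replicate 1 stood apart most. Its counts gave a chi-square of 15.25 and 14.96 per degree of freedom against the other 2 libraries of the group, which gave 3.76 against each other. Western diet postpartum replicate 2 also stood apart, with 12.94 and 11.81 against replicates 1 and 3 of its group, which gave 6.49 against each other. Pairs within the remaining groups gave 5.04 to 11.14. Control diet postpartum replicate 3 carried brown fat RNA, with Ucp1 at 73.0 CPM against at most 0.5 CPM elsewhere. Library numbers in the titles place all postpartum hearts first, and effects of that order and of pregnancy cannot be told apart. Whether a group's libraries are separate animals is not stated, so a p-value here rests on the spread among libraries, which may be technical. In whole hearts, fewer cells of a type and less RNA per cell cannot be told apart.

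Transcript levels are given as TPM, counts divided by the exon length in the files and scaled to the same sum in each library, as mean ± SD over the 12 libraries. Cox6a2, the heart and muscle form of a complex IV subunit that borders the dimer interface, was the highest at 4156 ± 187 TPM. It was followed by Atp5a1 at 3499 ± 151 and Atp5b at 2806 ± 111 TPM, the alpha and beta subunits that form the catalytic head of ATP synthase. Next came Cox8b at 2575 ± 121, Cox4i1 at 2327 ± 97.4 and Cox7a1 at 2252 ± 131 TPM, all of complex IV. In this order Atp5a1 and Atp5b stood apart by more than their SDs, whereas Cox4i1 and Cox7a1 lay within 1 SD of each other. In all, 19 of 84 members reached 1000 TPM and 5 stayed under 100 TPM.

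**Figure D1:**
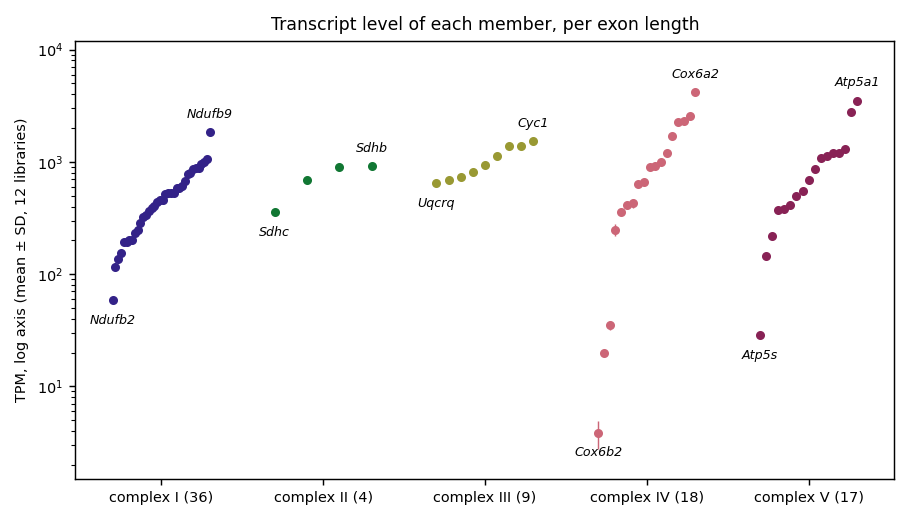
Transcript level of each of the 84 members in TPM (log axis), grouped by complex, with the number of members in parentheses; points are means over 12 libraries and bars are SDs, mostly smaller than the points. Complex IV held both the highest member, Cox6a2 at 4156 TPM, and the lowest, Cox6b2 at 3.84 TPM.

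Complex I ranged from Ndufb9, an accessory subunit, at 1839 ± 60.1 TPM to Ndufb2, another, at 58.4 ± 2.96 TPM, with a median of 458.5 TPM. The accessory subunit Ndufs6 stood at 990 ± 34.2 TPM. In complex II the levels were 914 ± 34.8 TPM for the iron-sulphur subunit Sdhb, 892 ± 43.9 for the flavoprotein Sdha, 694 ± 49.6 for the membrane anchor Sdhd and 354.5 ± 13.3 for the anchor Sdhc. Complex III was the most even, from Cyc1, the cytochrome c1 subunit, at 1520 ± 83.1 TPM to Uqcrq at 644 ± 37.6 TPM. Between them, Uqcr11 stood at 1386 ± 74.4 and the Rieske iron-sulphur protein Uqcrfs1 at 1381 ± 49.5 TPM, which did not differ beyond their SDs. In complex V, Atp5g3 at 1308 ± 64.9 TPM exceeded Atp5g1 at 493 ± 35.4 and Atp5g2 at 220 ± 7.08 TPM; these 3 genes encode the same mature c subunit of the membrane rotor. The lowest member of complex V by symbol was Atp5s at 28.6 ± 1.4 TPM.

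The order depends on the length each count is divided by. With the length of the principal annotated transcript in place of all exons, Atp5b led at 5106 TPM, Cox4i1 stood at 3932, Atp5a1 at 3652 and Cox6a2 at 3419 TPM. Atp5l moved from 145 to 1412 TPM and Cox6c from 412 to 1996 TPM under this change, whose exons in the files add up to 6443 and 3567 bases and whose principal transcripts have 544 and 606 bases. Cox6b2, Cox4i2, Atp5s and Ndufa4l2 were the lowest 4 under both lengths.

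The members varied little between hearts. Their coefficient of variation over the 12 libraries was 5.67% at the median, from 4.40% to 28.2%, against 7.24% for the 1333 genes tested at 100 CPM or more. Within groups the medians were 5.59% for the members and 5.89% for those 1333 genes, so the members were hardly steadier than other well expressed genes. Among the members, the highest library exceeded the lowest by less than 1.25-fold for 53 of 84 and by less than 1.4-fold for 80. Cox6b2, a testis form of a complex IV subunit, varied most. On the control diet it stood at 0.928, 1.76 and 2.18 CPM in nonpregnant and 1.46, 2.13 and 2.04 CPM in postpartum hearts, and on the Western diet at 2.88, 2.54 and 1.97 CPM in nonpregnant and 1.22, 1.84 and 2.31 CPM in postpartum hearts. The ranges of all 4 groups overlapped.

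**Figure D2:**
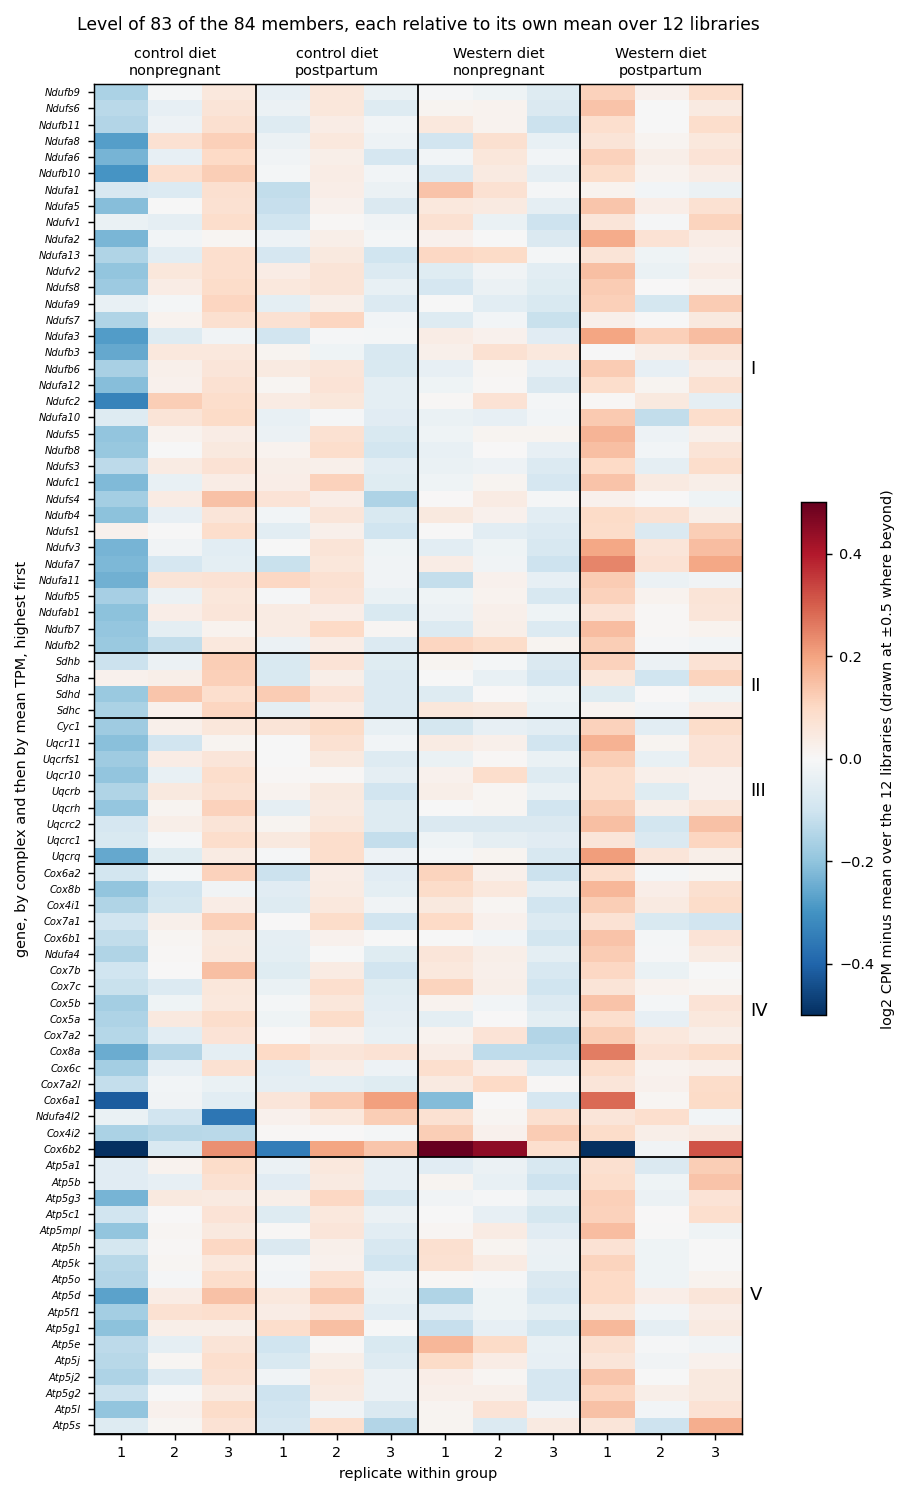
Log2 CPM of 83 of the 84 members minus each one's mean over the 12 libraries, with genes as rows by complex (labels at the right) and libraries as columns by group; blue is lower and red is higher. Control diet nonpregnant replicate 1 is blue for most members of every complex and Western diet postpartum replicate 1 is red, with median deviations of -0.165 and 0.112.

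By library, the median member lay 0.165 below its 12-library mean (log2 scale) in control diet nonpregnant replicate 1, and 0.0029 below and 0.070 above it in replicates 2 and 3. In control diet postpartum hearts the medians were -0.017, 0.052 and -0.053, in Western diet nonpregnant hearts 0.010, 0.012 and -0.059, and in Western diet postpartum hearts 0.112, -0.0039 and 0.052. Each group had libraries above and below 0, and the 4 groups overlapped. All 5 complexes had their lowest median in control diet nonpregnant replicate 1, from -0.134 for complex II to -0.190 for complex I. In the same library the 78 mitochondrial ribosomal proteins had a median of -0.161, the 13 mitochondrially encoded subunits -0.085 and the 8 cardiomyocyte markers -0.022.

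**Figure D3:**
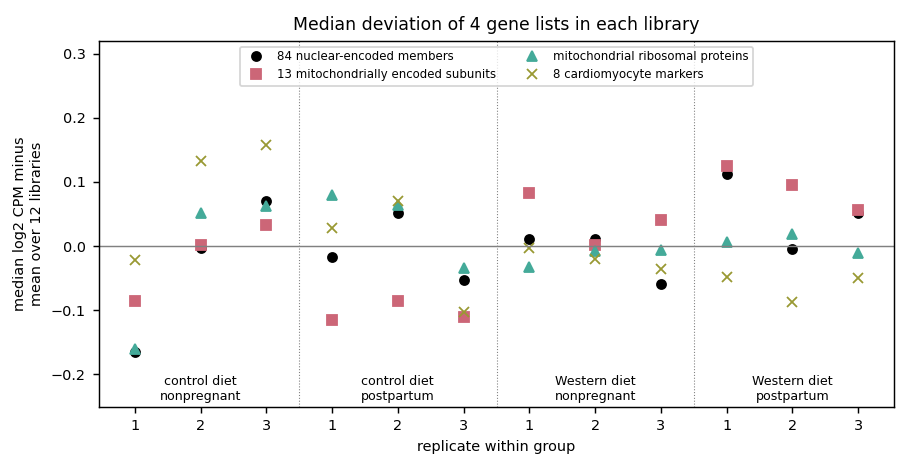
Median deviation of 4 gene lists in each library (log2 CPM minus the 12-library mean), with libraries by group along the horizontal axis. The 84 members (black circles) were lowest at -0.165 in control diet nonpregnant replicate 1 and highest at 0.112 in Western diet postpartum replicate 1.

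After group means were taken away, members moved together across the 12 libraries. The median Pearson correlation over the 3486 member pairs was 0.775, and 97.4% of pairs were above 0, whereas the median over all pairs of tested genes was -0.001. The points share libraries, scaling and tissue composition, so these values are a description. Only 1333 of the 15476 tested genes stood at 100 CPM or more, and pairs of similar level were not compared. Co-movement particular to the members is therefore not shown. Complex III, with 0.843, was the tightest, followed by V with 0.804, I with 0.802, IV with 0.702 and II with 0.654. Without control diet nonpregnant replicate 1 the median over all member pairs was 0.647 and 92.7% of pairs were above 0. Uqcrh, the hinge protein of complex III, followed the others most closely, with a median correlation of 0.891. Ndufa4l2, a relative of Ndufa4 known as a target of hypoxia signalling, ran opposite to the rest, with a median of -0.637 over all libraries and -0.430 without control diet nonpregnant replicate 1. Cox4i2, the oxygen-sensitive form of subunit 4, was close to unrelated at 0.189.

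Fold changes were tested with edgeR's quasi-likelihood test over all 15476 genes that passed a filter on low counts, which included all 84 members, with Benjamini-Hochberg adjusted p under 0.05 as the threshold. Ndufa3, Ndufa7 and Cox8a passed with Western diet postpartum against control diet nonpregnant hearts, Cox8a passed with pregnancy averaged over diets, and 0 members passed in the other 6 comparisons. The comparisons share libraries, so their results are not independent of each other.

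**Figure D4:**
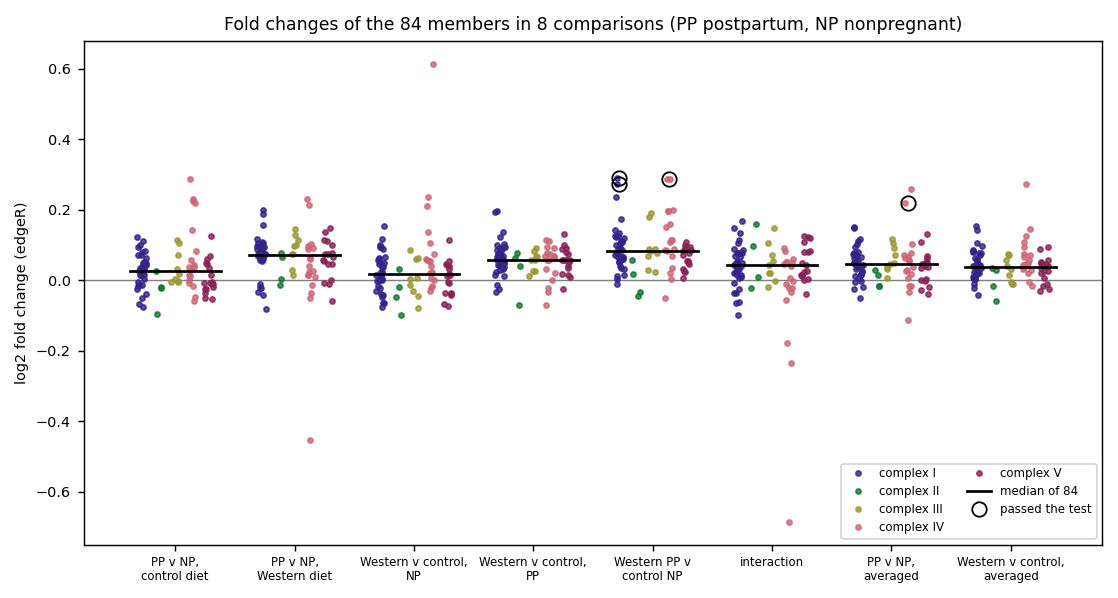
Log2 fold change of each member in 8 comparisons, with 1 point per gene coloured by complex, black bars at the median of the 84 and open circles around members that passed the test. PP is postpartum and NP nonpregnant; the 3 circled genes with Western postpartum against control nonpregnant hearts lie between 0.27 and 0.29, and Cox8a with pregnancy averaged over diets lies at 0.22.

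On the control diet, respiratory chain transcripts in postpartum and nonpregnant hearts differed by little. None of the 84 members passed edgeR's test, and 0.239% of all genes did. At an unadjusted p under 0.05, 3 members were higher and 0 lower, against 6.44% and 6.04% of all genes, and DESeq2 called 0. The 3 belonged to complex IV: Cox6a1, with a log2 fold change of 0.29 (SE 0.10, adjusted p = 0.270, and 0.00952 with no filter on low counts), Cox8a with 0.22 (SE 0.070, adjusted p = 0.215) and Ndufa4l2 with 0.22 (SE 0.084, adjusted p = 0.297). Without the filter, calls over all genes here also went from 37 to 744. Of the catalytic core of complex I, Ndufv1, Ndufv2, Ndufs1, Ndufs3, Ndufs7 and Ndufs8 ran from -0.077 for Ndufs1 to 0.072 for Ndufs7. Sdha stood at -0.095 (SE 0.065, adjusted p = 0.585), the lowest estimate of the 84. The median over members was 0.027, against -0.0068 over all genes. It was -0.034, 0.044 and 0.078 without control diet nonpregnant replicate 1, 2 and 3, and 0.0069 and 0.054 without control diet postpartum replicate 2 and 3. The 95% interval of the fold change lay within 1.25-fold in either direction for 79 of 84 members and within 1.5-fold for 83, all but Cox6b2.

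On the Western diet the corresponding estimates were mostly positive but small. No member passed, 0.588% of all genes did, and DESeq2 called 0. At an unadjusted p under 0.05, 5 members were higher and 0 lower, against 8.12% and 6.62% of all genes. These 5 were Cox8a at 0.21 (SE 0.070, adjusted p = 0.183), Ndufv3, an accessory subunit of the NADH-binding module, at 0.19 (SE 0.064, adjusted p = 0.194), Ndufa7 at 0.20 (SE 0.069, adjusted p = 0.198), Ndufa3 at 0.16 (SE 0.068, adjusted p = 0.302) and Cox6a1 at 0.23 (SE 0.10, adjusted p = 0.312). In all, 69 of 84 estimates were above 0, against 49.3% of all genes, with a median of 0.072, which fell to 0.044 without Western diet postpartum replicate 1. The count at an unadjusted p under 0.05 was 1 without that library and 16 without Western diet postpartum replicate 2. In 18 members all 3 postpartum libraries exceeded all 3 nonpregnant ones, compared with 10.1% of all genes. Some gaps were narrow, such as 352.7 against 352.4 CPM at the nearest for Ndufb5. Of these 18, 10 belonged to complex I and 4 to complex V, which supply 36 and 17 of the 84 members. The same 6 core genes of complex I had positive estimates, from 0.073 for Ndufv1 to 0.11 for Ndufs8, with the smallest adjusted p at 0.512. Since members move together within libraries, such counts are not independent. Intervals lay within 1.25-fold for 78 members.

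Between Western and control diet in nonpregnant hearts, 0 members were called by edgeR or DESeq2 and 0.0582% of all genes were called by edgeR. At an unadjusted p under 0.05, 4 members were higher and 0 lower, against 4.63% and 4.95% of all genes. The smallest p belonged to Cox4i2, which stood at 6.39, 6.47 and 6.49 CPM in control diet and at 7.77, 7.23 and 7.77 CPM in Western diet nonpregnant hearts. The groups did not overlap, and the log2 fold change was 0.24 (SE 0.087, adjusted p = 0.418). Ndufa4l2 followed at 0.21 (SE 0.084, adjusted p = 0.457), Ndufb2 at 0.15 (SE 0.068, adjusted p = 0.503) and Cox8b at 0.14 (SE 0.064, adjusted p = 0.521). Sdha was the 1 member lower in every Western diet library than in every control diet library, at -0.097 (SE 0.065, adjusted p = 0.687); 7.84% of all genes had that pattern. The median over members was 0.018. It was -0.034, 0.036 and 0.072 without control diet nonpregnant replicate 1, 2 and 3, and 0.0099 and 0.044 without Western diet nonpregnant replicate 2 and 3. Intervals lay within 1.25-fold for 81 members, all but Cox4i2, Cox6b2 and Ndufa4l2. Cell type markers differed between control and Western diet nonpregnant hearts. Cardiomyocyte sums were 71870 to 81480 and 68250 to 71020 CPM, and atrial cardiomyocyte sums 63.2 to 87.85 and 30.9 to 55.7 CPM. Endothelial sums were 764 to 815 and 840 to 910 CPM, and fibroblast sums 638 to 869 and 873 to 916 CPM. Macrophage sums overlapped, at 137 to 173 and 151 to 179 CPM. The part of these lists in the values of single members was not tested.

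In postpartum hearts, Western against control diet estimates were above 0 for 76 of 84 members, against 49.9% of all genes, with a median of 0.058. Such counts over all members are not independent, since members move together within libraries. They are given only for the comparisons with the largest medians. The median was 0.033 without Western diet postpartum replicate 1 and 0.035 without control diet postpartum replicate 3. No member passed edgeR's test, while 0.879% of all genes did, and DESeq2 called 0. At an unadjusted p under 0.05, 2 members were higher and 0 lower, against 7.83% and 6.77% of all genes. These were Ndufa3 at 0.19 (SE 0.068, adjusted p = 0.197) and Ndufa7 at 0.20 (SE 0.069, adjusted p = 0.201), both accessory subunits of complex I. Next in order were Cox7a2l, placed with complex IV by its symbol, at 0.11 (SE 0.052, adjusted p = 0.344) and Ndufv3 at 0.12 (SE 0.064, adjusted p = 0.403). All 9 members of complex III had positive estimates, up to 0.091. Sdhd at -0.071 (SE 0.079, adjusted p = 0.752) was the lowest. Intervals lay within 1.25-fold for 81 members.

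The 2 factors together, Western diet postpartum against control diet nonpregnant hearts, gave 3 called members, all higher. It was also the comparison with the most calls over all genes, 406 of 15476 or 2.62%. A count of 3 among 84 members is near that share, so it shows nothing particular to the members. At an unadjusted p under 0.05, 13 members were higher and 0 lower, against 9.71% and 8.45% of all genes. In 11 members the 3 Western diet postpartum libraries exceeded all control diet nonpregnant ones, compared with 10.3% of all genes. Ndufa7, an accessory subunit of complex I (chr17:33824591-33838316, plus strand, GRCm38), stood at 128, 142 and 145 CPM in control diet nonpregnant hearts and at 178, 158 and 172 CPM in Western diet postpartum hearts. These groups did not overlap. The other 2 groups, at 139 to 156 CPM in control diet postpartum and 140 to 154 CPM in Western diet nonpregnant hearts, overlapped the control diet nonpregnant values and stayed below those of Western diet postpartum hearts. Its log2 fold change was 0.29 (SE 0.069, adjusted p = 0.0437), a rise in 3 of 3 libraries. Cell type markers differed between the same 2 groups: the 8 cardiomyocyte markers summed to 71870 to 81480 CPM in control diet nonpregnant and 71050 to 71700 CPM in Western diet postpartum hearts, with 8 of 8 estimates below 0 and 1 called lower. The sums of 6 endothelial markers were 764 to 815 and 860 to 954 CPM, those of 6 macrophage markers 137 to 173 and 174 to 202 CPM, and those of 6 fibroblast markers 638 to 869 and 846 to 952 CPM, with 5, 6 and 6 estimates above 0 and 1 called higher in each list. White adipocyte sums were 190.5 to 247 and 254 to 311 CPM, and atrial cardiomyocyte sums 63.2 to 87.85 and 44.4 to 62.8 CPM. Brown adipocyte sums, which include the member Cox8b, were 414 to 471 and 496 to 536 CPM. Skeletal muscle and red cell sums overlapped. The part of these marker lists in the 3 calls was not tested.

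Cox8a, the form of subunit 8 found in most tissues (chr19:7215158-7217616, minus strand), stood at 89.2, 95.9 and 103 CPM in control diet nonpregnant and at 127, 112 and 113 CPM in Western diet postpartum hearts. Again the groups did not overlap, and the log2 fold change was 0.29 (SE 0.070, adjusted p = 0.0467). Ndufa3, a membrane subunit of complex I (chr7:3617373-3620327, plus strand), stood at 197, 229 and 236 against 274, 260 and 266 CPM, with no overlap, at 0.27 (SE 0.068, adjusted p = 0.0499). All 3 calls lay close to the threshold. Of 17 alternative settings, 8 kept the call of Ndufa7, 6 that of Cox8a and 5 that of Ndufa3, with adjusted p values of 0.0042 to 0.183, 0.00754 to 0.200 and 0.00532 to 0.185. Log2 fold changes stayed between 0.20 and 0.34 under all of them.

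Leaving out single libraries accounted for most of these losses. Ndufa3 stayed past the threshold only without Western diet postpartum replicate 2, and Cox8a only without that library or Western diet nonpregnant replicate 1. Ndufa7 stayed past it without either of these 2, or without control diet postpartum replicate 1 or 2. Every other single omission ended each call, and so did a fit of only the 2 groups compared, which left 0 members called. Without control diet nonpregnant replicate 1, the library lowest for most members, 0 were called and the members' median was 0.017 in place of 0.082. The median was 0.050 without Western diet postpartum replicate 1 and 0.12 without control diet nonpregnant replicate 3.

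Among members that did not pass edgeR's test in this comparison, Ndufv3 stood at 192, 223 and 218 against 258, 236 and 251 CPM, with no overlap, at 0.24 (SE 0.064, adjusted p = 0.0655). It passed with DESeq2 (adjusted p = 0.0129), with no filter on low counts (0.0436) and without Western diet postpartum replicate 2 (0.0343). Without the filter, calls over all genes here also went from 406 to 1315. Cox8b, the heart form of subunit 8, had 0.20 (SE 0.064, adjusted p = 0.118) and passed with DESeq2 (adjusted p = 0.0448), and Cox6a1 had 0.29 (SE 0.10, adjusted p = 0.149). Of all estimates, 80 of 84 were above 0, against 49.6% of all genes, a count that is not independent because members move together within libraries. The 4 below were Cox7a1 at -0.049, Sdhd at -0.045, Sdha at -0.032 and Ndufs4 at -0.010, with adjusted p values of 0.779 to 0.963 by edgeR. The 5 genes of the ATP synthase head ran from 0.027 for Atp5a1 to 0.082 for Atp5d and the 3 c subunit genes from 0.085 to 0.10, none under an adjusted p of 0.506. By complex the median was 0.11 for IV, 0.082 for III, 0.081 for I, 0.073 for V and -0.0068 for II. Intervals lay within 1.25-fold for 73 members and within 1.5-fold for 83.

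Averaged over diets, Cox8a was higher after pregnancy, as 1 called member where 1.78% of all genes were called. At an unadjusted p under 0.05, 9 members were higher and 0 lower, against 9.08% and 8.50% of all genes. In control diet postpartum hearts it stood at 114, 111 and 111 CPM and in Western diet nonpregnant hearts at 109, 97.1 and 97.2 CPM, so on each diet all postpartum libraries exceeded all nonpregnant ones. The averaged log2 fold change of Cox8a was 0.22 (SE 0.050, adjusted p = 0.0440), with 0.22 on the control and 0.21 on the Western diet. Of 16 alternatives, 7 kept this call, with adjusted p values of 0.00283 to 0.118. Among single omissions it passed only without control diet nonpregnant replicate 1, Western diet nonpregnant replicate 1 or Western diet postpartum replicate 2, and each of the other 9 ended it.

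Cox6a1, the widely expressed form of subunit 6a, had the largest averaged estimate and did not pass edgeR's test, but passed with DESeq2 (adjusted p = 0.0236), with no filter on low counts (0.000241) and without Western diet postpartum replicate 2 (0.0466). Without the filter, calls over all genes in this comparison also went from 276 to 1262. On the control diet the levels of Cox6a1 were 59.2, 77.8 and 76.1 CPM in nonpregnant and 82.3, 86.3 and 90.8 CPM in postpartum hearts. On the Western diet they were 67.9, 79.0 and 74.4 CPM in nonpregnant and 96.0, 79.3 and 84.2 CPM in postpartum hearts. Postpartum libraries exceeded nonpregnant ones on each diet without overlap, on the Western diet by 79.3 against 79.0 CPM at the nearest, and the log2 fold change of Cox6a1 was 0.26 (SE 0.071, adjusted p = 0.0827). With Cox8a it made up the 2 members that did not overlap on both diets, where 1.59% of all genes did so. Ndufv3 had 0.15 (SE 0.045, adjusted p = 0.105, and 0.0329 with DESeq2), Ndufa7 0.15 (SE 0.049, adjusted p = 0.139) and Ndufa3 0.12 (SE 0.048, adjusted p = 0.217). Lowest among the better expressed members were Ndufa1 at -0.050 (SE 0.045, adjusted p = 0.609) and Atp5e at -0.040 (SE 0.048, adjusted p = 0.717). Alongside these values, markers of other cells differed between the same groups: on the control diet, the summed level of 6 fibroblast markers was 638 to 869 CPM without and 969 to 1200 CPM after pregnancy, and that of macrophage markers was 137 to 173 and 189 to 213 CPM. On the Western diet they ran from 873 to 916 and from 846 to 952 CPM for fibroblasts, and from 151 to 179 and from 174 to 202 CPM for macrophages. Their part in the values of Cox8a and Cox6a1 was not tested.

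Averaged over pregnancy states, 0 members were called for diet by edgeR or DESeq2, with 1.38% of all genes called by edgeR. At an unadjusted p under 0.05, 6 members were higher and 0 lower, against 7.42% and 6.86% of all genes. Ndufa3 led at 0.15 (SE 0.048, adjusted p = 0.138), then Cox7a2l at 0.11 (SE 0.037, adjusted p = 0.185), Ndufa7 at 0.14 (SE 0.049, adjusted p = 0.189), Cox8b at 0.13 (SE 0.045, adjusted p = 0.211) and Cox4i2 at 0.15 (SE 0.061, adjusted p = 0.294). Cox7a2l and Cox4i2 were the 2 members whose diet groups did not overlap in either pregnancy state, against 1.54% of all genes. For 83 of 84 members the interval lay within 1.25-fold, all but Cox6b2.

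No member's response to pregnancy was shown to differ between diets. edgeR's interaction test called 0 members and 0.00% of all genes; at an unadjusted p under 0.05, 0 members were higher or lower, against 5.12% and 3.86% of all genes, and DESeq2 called 0. Ndufa4l2 came nearest at -0.23 (SE 0.12, adjusted p = 0.578), followed by Ndufs1 at 0.17 (SE 0.089, adjusted p = 0.591) and Sdha at 0.16 (SE 0.091, adjusted p = 0.609). Ndufa4l2 stood at 14.8, 14.2 and 11.8 CPM in control diet nonpregnant hearts, below all 9 other libraries, which ran from 15.0 to 16.5 CPM. Interaction estimates are less precise: 70 intervals lay within 1.25-fold and 83 within 1.5-fold. The members' median of 0.042 ranged from -0.011 without control diet nonpregnant replicate 3 to 0.093 without replicate 1 of that group.

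Complex IV was the complex with paired subunit forms, and in 3 pairs the heart form dominated in every library. Cox6a2 made up 93.4% to 95.5% of the Cox6a pair per exon length, Cox8b 84.4% to 87.2% of the Cox8 pair and Cox7a1 76.5% to 79.0% of the Cox7a1 and Cox7a2 pair. In contrast, Cox4i2 made up 0.753% to 0.986% beside Cox4i1, and Ndufa4l2 2.13% to 3.18% beside Ndufa4. Within a library such a ratio needs no scaling. The 3 pairs set a muscle form against a form found in most tissues, and markers of other cells differed between the groups. Besides the fibroblast and macrophage sums above, endothelial sums on the control diet were 764 to 815 CPM in nonpregnant and 830 to 882 CPM in postpartum hearts. On the Western diet they were 840 to 910 and 860 to 954 CPM. The part of cell composition in the ratios was not tested. The ratios were compared between groups with an exact permutation test within strata, two-sided, over 400 arrangements, with 10 tests in the family. Its smallest p is 0.005, which gives an adjusted p of 0.05 if it stands alone, so a single ratio could not fall under 0.05.

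The Cox8b to Cox8a log2 ratio was 2.04, 2.03 and 2.02 in control diet nonpregnant hearts and 1.83, 1.97 and 1.87 in postpartum hearts on that diet. On the Western diet it was 2.05, 2.17 and 2.07 in nonpregnant and 1.90, 1.95 and 1.98 in postpartum hearts. Every postpartum ratio was below every nonpregnant one on the same diet. The mean difference was -0.147 (-0.142 on the control and -0.153 on the Western diet), with the smallest p the exact permutation test can give, 0.005, and an adjusted p of 0.05. The share of Cox8b per length was 86.1 ± 0.10% and 84.9 ± 0.62% (SD, n = 3) on the control diet and 86.6 ± 0.52% and 85.3 ± 0.34% on the Western diet, nonpregnant and postpartum.

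The Cox6a2 to Cox6a1 log2 ratio on the control diet was 4.35, 4.03 and 4.19 in nonpregnant and 3.86, 3.93 and 3.77 in postpartum hearts. The lowest, 3.77, was that of control diet postpartum replicate 3, the library that carried brown fat RNA. On the Western diet the ratio was 4.35, 4.05 and 4.0 in nonpregnant and 3.82, 4.01 and 3.94 in postpartum hearts. The groups were apart on the control diet and overlapped on the Western diet, with differences of -0.339 and -0.211. On the Western diet, postpartum replicate 2 at 4.006 lay above nonpregnant replicate 3 at 4.003. The mean of the 2 differences was -0.275, with an exact permutation p of 0.01 and an adjusted p of 0.05. Cox6a2 itself had an averaged fold change of -0.016 (adjusted p = 0.906 by edgeR), against 0.26 for Cox6a1.

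The Cox7a1 to Cox7a2 ratio pointed the same way with -0.097 (exact permutation p = 0.025, adjusted p = 0.0833), by -0.054 on the control and -0.140 on the Western diet. None of the 3 adjusted values is under 0.05. Effects of pregnancy on the Cox4i2 and Ndufa4l2 ratios were -0.024 and 0.090, with exact permutation p values of 0.665 and 0.425. Diet differences of the 5 ratios ran from -0.063 for Cox7a1 to 0.071 for Cox4i2, and the smallest exact permutation p was 0.07, for Cox8b at 0.058.

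**Figure D5:**
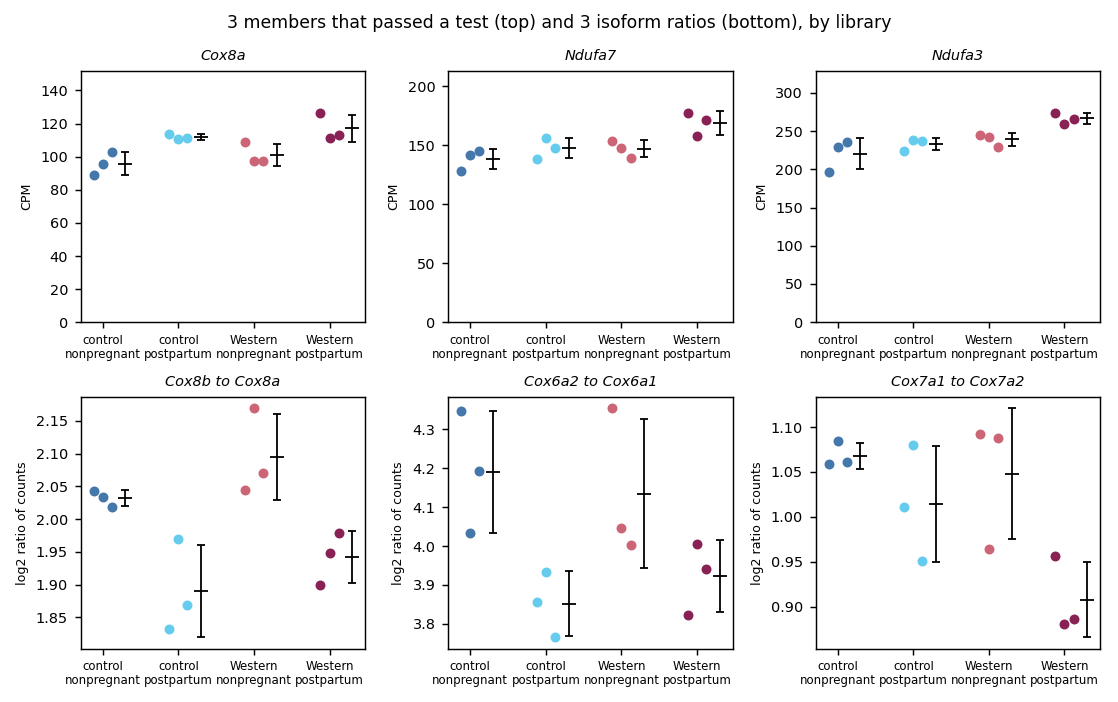
Top: CPM of the 3 members that passed a test, by group, with 1 point per library and mean ± SD beside them. Bottom: log2 ratio of counts of the heart form to the widely expressed form for 3 pairs of complex IV subunits; every postpartum Cox8b to Cox8a ratio (1.83 to 1.98) lies below every nonpregnant one (2.02 to 2.17).

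The counterpart subunits encoded in mitochondrial DNA were read from the same fit. Of 13, mt-Nd2, a membrane subunit of complex I, was called higher with the Western diet in postpartum hearts, at 15713, 16089 and 15501 CPM on the control and 19917, 19926 and 18704 CPM on the Western diet, a log2 fold change of 0.31 (SE 0.062, adjusted p = 0.0359). The 13 had a median of 0.22 there, with 13 of 13 estimates above 0. Averaged over pregnancy states, mt-Nd2 (0.20, SE 0.044, adjusted p = 0.0462) and mt-Nd4 (0.20, SE 0.044, adjusted p = 0.0393) rose with the diet. With pregnancy averaged over diets, mt-Nd6 fell by 0.23 on the log2 scale (SE 0.050, adjusted p = 0.0362). No difference between the mitochondrial and the nuclear set was tested. Counts of mitochondrial genes were uneven, with 120500 TPM for mt-Co1 but 38.3 to 47.8 TPM for mt-Co2, mt-Co3, mt-Atp6 and mt-Atp8, for which the cause was not tested.

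Other lists of the same biology held no called gene in any of the 8 comparisons. Of 49 assembly factors 47 were tested, and their medians ran from -0.038 to 0.040. Of 20 genes of electron carriers and other ubiquinone reductases none was called, with at most 3 higher and 3 lower at an unadjusted p under 0.05 in a comparison. The 13 citric acid cycle genes had medians from -0.059 to 0.12. Among 17 regulators of respiratory gene transcription the smallest adjusted p was 0.0502, for Ppara, a nuclear receptor of fatty acid oxidation, at -0.47 (SE 0.12) with Western diet postpartum against control diet nonpregnant hearts. Ppargc1a, the coactivator of mitochondrial biogenesis, stood at 113 ± 5.96 and 119 ± 18.9 CPM (SD, n = 3) in nonpregnant and postpartum hearts on the control diet, and at 127 ± 6.95 and 122 ± 26.8 CPM on the Western diet.

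Promoter sequences are shown for the 3 called members, for the other members of the Cox6a, Cox7a and Cox8 pairs that the table held, and for Sdha, which held 3 matches to an NRF1 motif. NRF1 (nuclear respiratory factor 1) and GABP, an ETS factor also called NRF2, are known activators of respiratory chain genes. Each line runs 5′ to 3′ from 140 bases before to 10 bases after the transcription start, from RefSeq on GRCm38.p6, with matches to any motif searched in capitals and all else in lower case.
Cox8a (chr19:7217607-7217756, minus strand): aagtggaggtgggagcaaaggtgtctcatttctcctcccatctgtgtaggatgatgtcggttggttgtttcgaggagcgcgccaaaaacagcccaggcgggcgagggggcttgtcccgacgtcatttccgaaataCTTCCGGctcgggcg
Cox8b (chr7:140900437-140900586, minus strand): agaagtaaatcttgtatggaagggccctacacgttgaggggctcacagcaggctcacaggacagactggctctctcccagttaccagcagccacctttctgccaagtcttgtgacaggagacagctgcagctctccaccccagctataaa
Cox6a1 (chr5:115348949-115349098, minus strand): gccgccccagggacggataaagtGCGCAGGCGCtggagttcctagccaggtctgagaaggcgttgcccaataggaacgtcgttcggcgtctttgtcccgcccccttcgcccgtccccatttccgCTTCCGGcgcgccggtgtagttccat
Cox7a2 (chr9:79759844-79759993, minus strand): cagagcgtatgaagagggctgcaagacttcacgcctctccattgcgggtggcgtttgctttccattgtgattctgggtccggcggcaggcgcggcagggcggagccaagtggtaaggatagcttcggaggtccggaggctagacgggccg
Cox7a1 (chr7:30184031-30184180, plus strand): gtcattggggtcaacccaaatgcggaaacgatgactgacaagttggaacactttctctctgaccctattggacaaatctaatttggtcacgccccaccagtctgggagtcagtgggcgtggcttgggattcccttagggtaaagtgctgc
Ndufa3 (chr7:3617233-3617382, plus strand): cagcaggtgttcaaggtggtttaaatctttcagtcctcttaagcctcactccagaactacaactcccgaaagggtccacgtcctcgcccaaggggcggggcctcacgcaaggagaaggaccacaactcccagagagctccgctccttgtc
Ndufa7 (chr17:33824432-33824581, plus strand): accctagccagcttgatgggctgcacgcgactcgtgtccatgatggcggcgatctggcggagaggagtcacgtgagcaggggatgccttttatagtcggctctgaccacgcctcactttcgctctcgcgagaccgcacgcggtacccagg
Sdha (chr13:74350231-74350380, minus strand): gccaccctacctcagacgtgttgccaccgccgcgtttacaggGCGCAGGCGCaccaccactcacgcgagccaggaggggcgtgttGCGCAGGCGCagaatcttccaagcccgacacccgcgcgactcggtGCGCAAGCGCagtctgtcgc

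In these windows Sdha held matches to the NRF1 motif (GCGCA, any base, GCGC) starting 98, 55 and 10 bases before the start, and Cox6a1 held 1 at 117 bases before it and a CCGGAAG match, on the opposite strand, at 16 bases before it. Cox8a held CCGGAAG, on the opposite strand, at 5 bases before its start and a second 33 bases into the transcript, outside the stretch shown. Cox8b, Cox7a1, Cox7a2, Ndufa3 and Ndufa7 show no capitals here. Ndufa7 has a second listed start whose window holds an AANATGGC match 18 bases before it, and Ndufa3 has 1 such match 23 bases into its transcript.

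Over all members, 68 of 84 had a promoter in the table. Within the window from 250 bases before to 50 after a start, on both strands, the NRF1 motif was in 25% of member genes against 10.7% of the 11186 tested genes in the table. The GABP/ETS motif CCGGAAG was in 23.5% against 18.7%, the YY1 motif AANATGGC in 25% against 9.32% and the ERR motif TCAAGGTCA, read by estrogen-related receptors, in 2.94% against 0.349%, which is 2 genes, Atp5g3 and Sdhd. The share of all 27018 genes in the table was 5.19%, 9.93%, 6.96% and 0.466%. By complex, the YY1 motif was in 12 of 32 searched genes of I, 0 of 3 of II, 0 of 5 of III, 1 of 13 of IV and 4 of 15 of V. The NRF1 motif was in 7 of 32, 2 of 3, 1 of 5, 1 of 13 and 6 of 15, in the same order. A match is a string of letters and not a shown binding site, and none of these motifs was set against the fold changes.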

How the data were processed

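Gene counts of 12 heart libraries were analysed. Total RNA came from an RNeasy extraction and was made into NEBNext Ultra libraries, per the labels' protocols. The authors deposited unnormalised counts per gene; the submitters' processing notes name FastQC, STAR (2.5.2b), Subread (1.5.2), featureCounts and GRCm38 (mm10). Which annotation release and strand setting were used is not stated there; 26 members share exon bases with another gene, 10 of them over 10% of their exons, and of 81 members searched with BLAST 2.17.0, 34 have a stretch of at least 100 bases at 95% identity in another gene, so their counts are uncertain. Cox8a, Cox6a1 and Ndufa7 have neither.

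Counts were filtered with edgeR 4.0.16 filterByExpr (minimum count 10, minimum total 15), scaled by TMM and fitted over all 12 libraries with a mean per group. The 8 comparisons were tested with the quasi-likelihood F test and adjusted separately over 15476 genes; the common biological coefficient of variation was 9.62%. Standard errors and 95% intervals come from that fit. Isoform ratios used a pseudocount of 0.5. Gene symbols came from the reference table of gene names, which left 345 genes without one, exon lengths from the files, principal transcripts from GENCODE vM21 and promoters from RefSeq. The members, lists and named genes were chosen with earlier results of these data known; named are called members, the 5 smallest p in each direction per comparison, the top 3 and the lowest by level per complex, isoform pairs and core subunits, with values near 0 partly left out. The values of 1 gene that this rule names are not reported here. Genes named for co-variation, for a change with length or from the other lists without passing a test were chosen after their values were seen. Role groups were formed afterwards, as a description. Alternatives were DESeq2 1.42.0, its size factors in edgeR, library sizes without mitochondrial genes, no filter, a ratio pseudocount of 5, each library left out, and, chosen after seeing the data, a fit of only the groups compared and the principal transcript length. The fits were tested on simulated data. Depth limits a count of 0 to under 0.102 to 0.132 CPM (3 counts), for counting error only.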

Additional observations from a re-analysis of the deposited data

How the results depend on the processing

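The members' median fold change is not shown to be stable: it changed sign in 3 of 133 alternative fits, and leaving out 1 library moved it by over 1.5 times in every comparison. In 7 of 8 comparisons it was smaller than the SD of single library medians within groups (0.0748). That SD is not the standard error of a difference between group means. With no filter on low counts, 1 member was called for pregnancy on the control diet, Cox6a1, 5 for both factors together and 2 for pregnancy averaged over diets, and DESeq2 called 5 and 3 in the last pair. A fit of only the groups compared called 0 for both factors together. Leaving out each library gave 0 to 4 for both factors together and 0 to 2 for pregnancy averaged over diets. The cause of these changes was not tested. DESeq2's size factors and library sizes without mitochondrial genes changed no count of called members. Over all genes, calls for both factors together went from 406 to 1315 without the filter, 768 with DESeq2 and 136 with only the groups compared. For pregnancy averaged over diets they went from 276 to 1262 without the filter and 591 with DESeq2. For pregnancy on the control and on the Western diet, for diet without and after pregnancy, for the interaction and for diet averaged over states, calls over all genes were 37, 91, 9, 136, 0 and 214; they were 744, 933, 454, 1048, 506 and 1029 without the filter and 170, 355, 99, 440, 46 and 479 with DESeq2. With only the groups compared, the first 4 were 6, 47, 0 and 71.

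Among isoform ratios, leaving out each library moved the pregnancy effect on Cox6a2 to Cox6a1 between -0.315 and -0.22, on Cox8b to Cox8a between -0.167 and -0.129, on Cox7a1 to Cox7a2 between -0.118 and -0.0813 and on Cox4i2 to Cox4i1 between -0.0479 and 0.00535. The diet effect ranged between -0.0474 and 0.0466 for Cox6a2, 0.0389 and 0.0771 for Cox8b, -0.0375 and 0.0948 for Ndufa4l2, and 0.041 (without Western diet nonpregnant replicate 3) and 0.0934 for Cox4i2. The pregnancy effect on Ndufa4l2 ranged from 0.0195 without control diet nonpregnant replicate 3 to 0.152 without replicate 1 of that group. The adjusted p was 0.025 for Cox8b and Cox7a1 without control diet postpartum replicate 2, and for Cox8b and Cox6a2 without Western diet nonpregnant replicate 3, all for pregnancy; in no other omission was it under 0.05. No paired analysis was possible because no number in the titles is shared between groups.

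The interval of the fold change lay within 1.5-fold in either direction for 83 or 84 of 84 members in each comparison, and within 1.25-fold for 70 to 83; Cox6b2, the member with the fewest counts, was the exception at 1.5-fold.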
